A study of Mus musculus with 6 samples.

Results

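The mRNAs of 45 translation initiation and elongation factors were followed in polysome RNA of RAW264.7 cells, a mouse macrophage-like line. They were the rows of the deposited table whose symbol matched a list of factors, and all 45 listed symbols were found among its 19233 genes. The BMH-21 group held 3 libraries from cells given 500 nM of BMH-21, which blocks transcription of ribosomal RNA genes by RNA polymerase I, for 24 h beginning 24 h after polarization. The DMSO group held 3 libraries from cells given the DMSO solvent. Cells of both groups were titled M2, the alternatively activated state, and the comparison asked how the drug changed the mRNAs found on polysomes. The treatment text describes bone-marrow-derived macrophages and not the line, so the polarizing agent of these cells was not given directly. All libraries came from 1 line, and nothing in the labels says that replicates were separate cultures. The p-values therefore measure the spread between these libraries, which may be technical.

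Translation factors bring ribosome, initiator tRNA and mRNA together and then drive the ribosome along the message. eIF2 delivers the initiator tRNA and is recharged by eIF2B. eIF3 organizes the small subunit, eIF4F loads it on the mRNA cap, and the elongation factors bring in aminoacyl-tRNAs and move the ribosome. Several of these mRNAs carry a 5′ terminal oligopyrimidine tract (TOP), a start of C and T bases through which mTORC1 and the protein LARP1 control their translation together with that of ribosomal protein mRNAs. Macrophages use the pathway heavily when they change state, since cytokines and enzymes have to be made anew.

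Levels were FPKM, fragments scaled to transcript length and library size, so they can be set side by side between genes. Steps between low values implied 18770000 to 22560000 reads in the BMH-21 libraries and 21610000 to 24070000 in the DMSO libraries. Macrophage markers were present (Cd68 at 885 and 805 FPKM in the BMH-21 and DMSO groups, on average), and of 8 such markers 4 rose and 4 fell. The B cell and fibroblast markers found in the table stayed at or below 0.061 FPKM. Of 5 T cell markers only Lck and Cd4 were in the table. Lck averaged 1.98 FPKM in BMH-21 and 3.28 FPKM in DMSO, and Cd4 stayed at or below 0.031 FPKM. Epithelial genes went against the labels in part. The summed FPKM of Epcam, Krt8, Krt18 and Cdh1 was 13.9, 10.9 and 13.04 in the BMH-21 libraries, against 0, 0.088 and 9.66 in DMSO replicates 1, 2 and 3. These genes thus set DMSO replicates 1 and 2 apart from the other 4 libraries. With DMSO replicate 3 as the lone control, 37 of the 39 calls among the factors kept their sign and passed again, in a fit that assumes this library to vary like the others, while the calls of Eif3i and Eif4e were lost. DMSO replicate 2 is the 1 library labelled as polyA RNA; the other 5 are labelled as total RNA.

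BMH-21 polysome RNA held less of most translation factor mRNAs and more of a few. Of the 45 factors, all of which passed the filter on low values, 32 fell and 7 rose with BMH-21 (limma adjusted p under 0.05), and 6 were not called. Of all 9748 tested genes 58.4% were called lower and 19.9% higher, 78.3% in all, so a majority of falls was also the pattern of the table. The median change of the factors was −0.35 on the log2(FPKM + 1) scale, against −0.23 for all tested genes. In 40 factors the groups did not overlap, 32 with the BMH-21 libraries lower and 8 with them higher, against 59.5% and 20.3% of all tested genes (79.8% in all). Calls of at least 2-fold on the log2(FPKM + 1) scale were rare. Eif3c and Eif3d fell that far, no factor rose that far, and of all genes 5.24% were called lower and 1.51% higher by as much. Eif4b, at 0.497 of its DMSO mean, had −0.99 on that scale, where 1 is added to each FPKM. Less of these mRNAs in the cells, a smaller part of them on polysomes and a rise of other mRNAs cannot be told apart in these libraries.

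**Figure D1:**
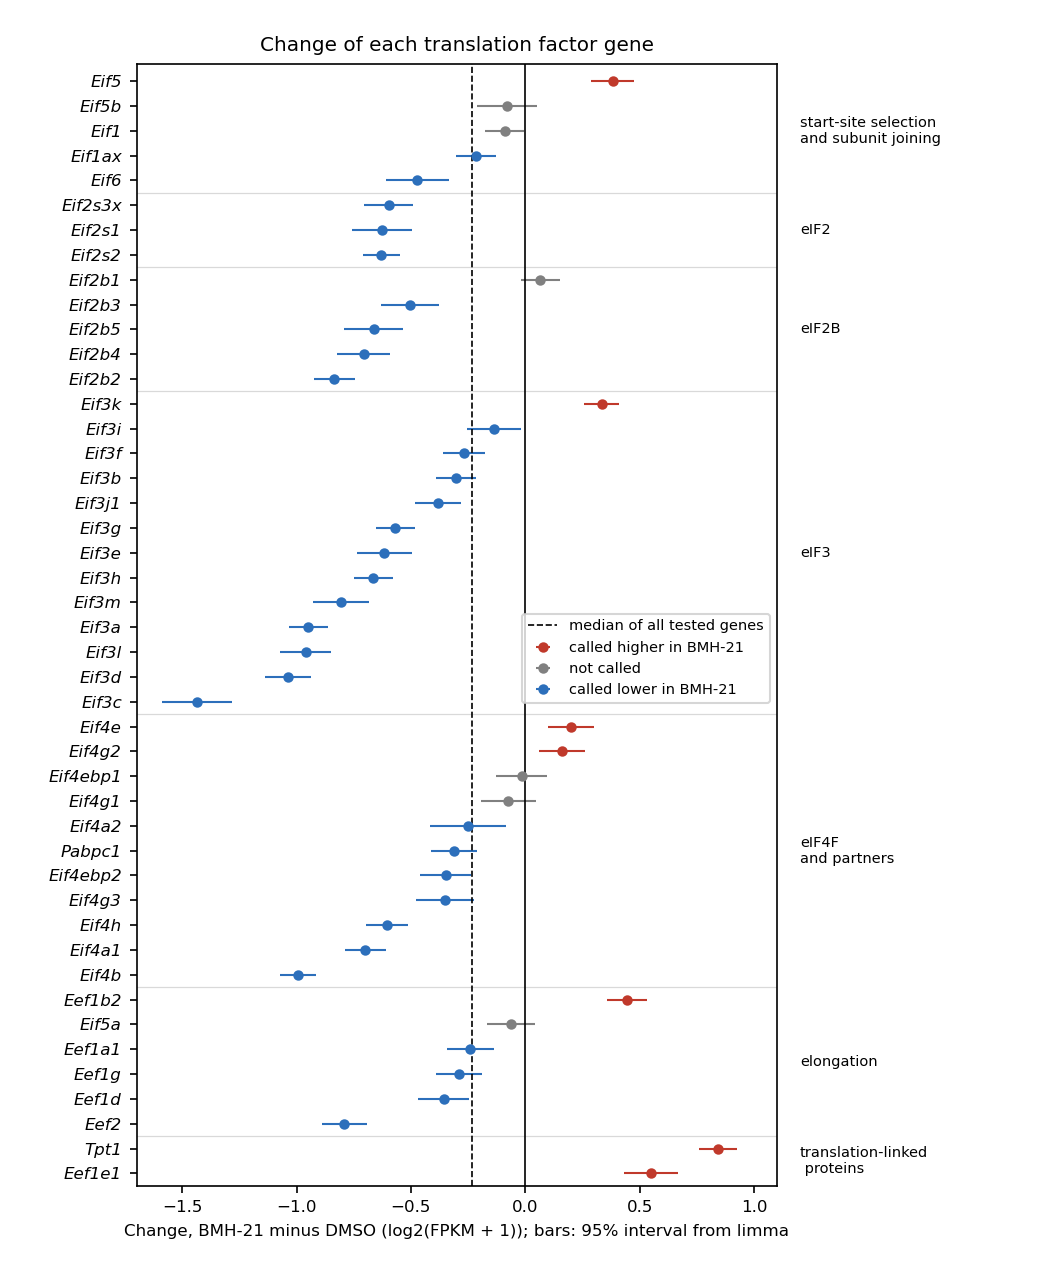
Change of each of the 45 factors, BMH-21 minus DMSO on the log2(FPKM + 1) scale, with limma's 95% interval; the dashed line is the median of all tested genes at −0.23. Most eIF2, eIF2B and eIF3 genes lie left of the dashed line, while Tpt1, Eef1e1, Eef1b2, Eif5 and Eif3k lie farthest to the right.

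How libraries were scaled decided the direction of some factors. With median-ratio scaling, which shifted the all-gene median by 0.24, 14 factors were higher and 20 lower, against 38.2% and 35.3% of all genes. With upper-quartile scaling (shift 0.26) the counts were 14 and 19, against 39.7% and 33.8% of all genes. Under quantile normalization (shift 0.23) they were 10 and 31, against 35.8% and 36.4%, and with equal column totals (shift −0.098) they were 5 and 37, against 14.2% and 67.9%. Across the deposited values and these 4 other scalings, 5 factors were called higher each time (Tpt1, Eef1e1, Eef1b2, Eif5 and Eif3k). Another 19 were called lower each time: Eif2s1, Eif2s2, Eif2s3x, Eif2b2, Eif2b3, Eif2b4, Eif2b5, Eif3a, Eif3c, Eif3d, Eif3e, Eif3g, Eif3h, Eif3l, Eif3m, Eif4a1, Eif4b, Eif4h and Eef2. The share of all tested genes called the same way each time was not computed, so these 2 counts have no share of the table beside them. For Eif1, Eif5b, Eif3i, Eif4ebp1, Eif4g1 and Eif5a the direction called depended on the scaling. The remaining 15 were called in 1 direction by some scalings and not called by others. For many genes the change relative to the all-gene median is therefore given as well.

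The summed FPKM of the 45 factors took 1.497%, 1.47% and 1.47% of all FPKM in the BMH-21 libraries, against 1.85%, 1.88% and 1.91% in the DMSO libraries. A constant factor per library leaves this share as it is, and its groups did not overlap (difference −0.40 percentage points, exact two-sided permutation p = 0.10, the smallest that 3 against 3 libraries allow). The share of the elongation factors was 0.813% ± 0.012 in BMH-21 and 1.05% ± 0.020 in DMSO (SD, n = 3 each), and that of eIF3 0.159% ± 0.0031 and 0.241% ± 0.0048. Only the pair of Tpt1 and Eef1e1 took a larger share, 0.152% ± 0.0023 in BMH-21 and 0.0934% ± 0.0027 in DMSO. A share also falls when other mRNAs rise: the lysozyme gene Lyz2 alone was at 17503 FPKM in BMH-21 and 9471 FPKM in DMSO. All FPKM summed to 368625 to 373396 in the BMH-21 libraries and 339022 to 343454 in the DMSO libraries. The 45 factors themselves summed to 5444 to 5520 FPKM in BMH-21, against 6341 to 6476 FPKM in DMSO. The part of Lyz2 in the lower share was not tested.

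**Figure D2:**
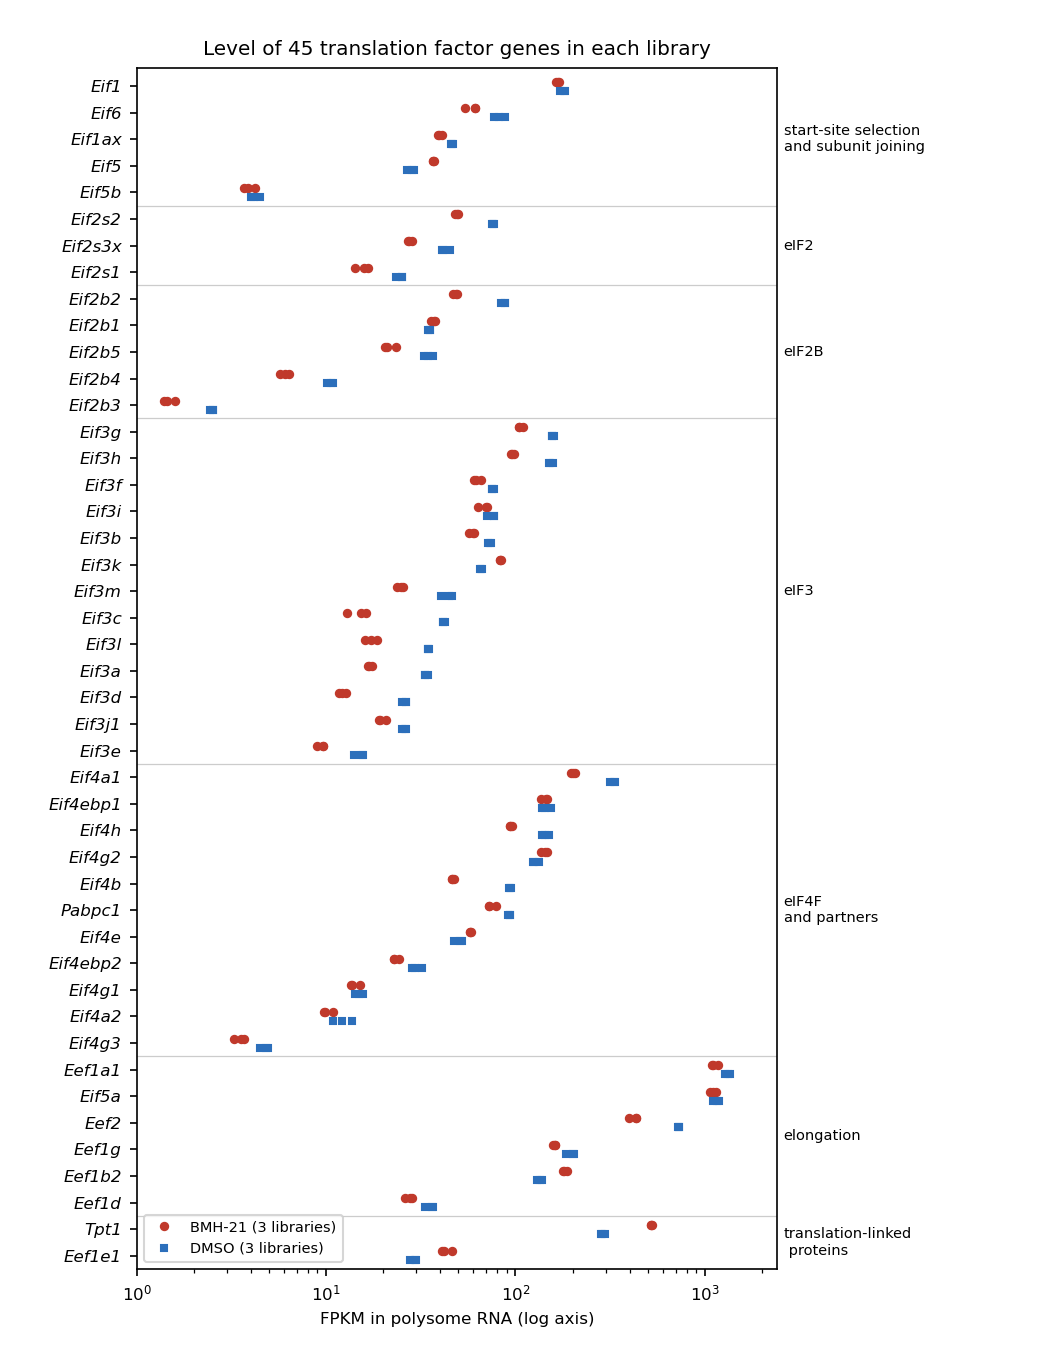
FPKM of every factor in each of the 6 libraries on a log axis, ordered by complex and, within it, by DMSO level. Circles are BMH-21 and squares DMSO libraries; Eef1a1 and Eif5a stand above 1000 FPKM in all 6, and Eif2b3 is lowest, at 1.48 and 2.51 FPKM on average in the BMH-21 and DMSO groups.

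Beside the 58.4% called lower and 19.9% called higher among all tested genes, 9 of the 11 factors known for a 5′ TOP fell (81.8%). The other 2 rose (18.2%), and the median was −0.31, or −0.080 relative to all genes. Of the other 34 factors 23 fell (67.6%), 5 rose (14.7%) and 6 were not called, a description with no test. Their median was −0.37, or −0.13 relative to all genes. With median-ratio and upper-quartile scaling only Eif3e, Eif3h, Eif4b and Eef2 of the 11 were called lower, against 35.3% and 33.8% of all genes. Eef1a1, Eef1d, Eef1g, Eif3f and Pabpc1 were not called with either. The TOP group thus held the largest rise among the factors, Tpt1, and also Eif4b, one of the larger falls. The 30 bases around the annotated start are shown for the 6 TOP members found in the RefSeq promoter table (build GRCm38.p6), 15 before the start and 15 from it on, to show how far their start sequences differ. Eif2s3x, which is not on the TOP list but has a long tract at its start, follows them. Capitals mark a C within 10 bases of the start that is followed by at least 4 bases, each C or T, on the gene's own strand; the search covered that strand only.
Eef1a1 (chr9:78481710-78481739, minus strand), lower: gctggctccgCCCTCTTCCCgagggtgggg
Eef2 (chr10:81176616-81176645, plus strand), lower: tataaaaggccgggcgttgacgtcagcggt
Eif3f (chr7:108934400-108934429, plus strand), lower: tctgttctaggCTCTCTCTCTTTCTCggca
Eif4b (chr15:102073758-102073787, plus strand), lower: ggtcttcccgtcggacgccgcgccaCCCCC
Eef1b2 (chr1:63176816-63176845, plus strand), higher: tggacctgcagttccgccggaagtagccga
Tpt1 (chr14:75845241-75845270, plus strand), higher: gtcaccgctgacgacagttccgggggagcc
Eif2s3x (chrX:94212637-94212666, minus strand), lower: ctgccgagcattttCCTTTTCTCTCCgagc
Such a tract lay across the annotated start of Eef1a1 and Eif3f. That of Eif4b began only at base 11 from the start and ran past the bases shown. No tract was found in these windows of Eef2, Eef1b2 and Tpt1. The RefSeq start used here is not always the outermost start in GENCODE M21: it lies 163 bases inside that of Tpt1, 211 inside that of Eif2s3x and 7427 inside that of Eef1a1, and within 6 bases of it for the other 4. Where transcription starts in these cells was not measured. No tract in the windows of Tpt1, Eef2 and Eef1b2 therefore says only that these letters lack one. RefSeq promoters were found for 35 factors, and 28.6% of them (10) had a tract. This compares with 37.2% of the 7703 tested genes and 34.4% of all 27025 genes listed there. Factors with a tract comprised 8 that fell and 1 that rose (median −0.45, n = 10), and those without comprised 16 and 5 (median −0.35, n = 25). Over all tested genes found there the medians were −0.24 with and −0.24 without a tract. Of the 2862 with a tract 1689 fell and 541 rose, and of the 4841 without 2869 fell and 974 rose.

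Among the factors of start-site selection and subunit joining, 1 rose (20.0%), 2 fell (40.0%) and 2 were not called. Of all tested genes 19.9% were called higher and 58.4% lower. Eif5, which encodes the protein that triggers GTP hydrolysis by eIF2 at the start codon, had 36.6, 37.2 and 36.6 FPKM in BMH-21 libraries, against 26.6, 29.0 and 28.5 FPKM in DMSO libraries. The 2 groups did not overlap, and the log2 change was 0.38 ± 0.043 (SE, limma adjusted p = 1.67e-05), or 0.61 relative to all genes. Eif6, which encodes the factor that keeps free large subunits from joining small ones, fell to 54.4, 61.5 and 60.9 FPKM in BMH-21, against 87.9, 76.6 and 82.0 FPKM in DMSO (log2 change −0.47 ± 0.061, limma adjusted p = 5.01e-05; −0.24 relative to all genes). With upper-quartile scaling the Eif6 change was −0.16 and was not called. Eif1ax, which acts with eIF1 in scanning, was lower at 39.7 ± 1.2 FPKM in BMH-21 and 46.3 ± 0.46 FPKM in DMSO (SD, n = 3 each), but its change of −0.22 turned to 0.073 with median-ratio scaling and 0.095 with upper-quartile scaling, uncalled in both. Eif1, the gatekeeper of start-codon choice, averaged 167 and 178 FPKM in BMH-21 and DMSO (limma adjusted p = 0.0527) and was called lower without DMSO replicate 1 (−0.12). It was called higher with median-ratio (0.20) and upper-quartile scaling (0.23), and lower with quantile normalization (−0.19) and equal column totals (−0.21). Eif5b, the GTPase of subunit joining, averaged 3.93 and 4.21 FPKM (limma adjusted p = 0.226).

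All 3 subunits of eIF2 fell, by closely similar amounts in the deposited values, and each was called lower under all 5 scalings. Of all tested genes 58.4% were called lower in the deposited values. With median-ratio, upper-quartile and quantile scaling this share was 35.3%, 33.8% and 36.4%, and with equal column totals 67.9%. Eif2s1, the alpha subunit whose phosphorylation shuts down initiation under stress, had 15.9, 16.7 and 14.3 FPKM in BMH-21, against 23.5, 25.3 and 25.2 FPKM in DMSO. Eif2s2, the beta subunit, had 47.9, 49.6 and 49.4 FPKM in BMH-21, against 76.4, 77.3 and 75.4 FPKM in DMSO. Eif2s3x, the X-linked gamma subunit that binds GTP and the initiator tRNA, had 28.4, 27.4 and 27.1 FPKM in BMH-21, against 41.2, 45.2 and 40.7 FPKM in DMSO. In each of the 3 the groups were clear of each other. Their log2 changes were −0.63, −0.63 and −0.60 (largest limma adjusted p = 4.81e-06), and the median was −0.39 relative to all genes. The ratio of Eif2s1 to Eif2s2 within a library was 0.319 in BMH-21 and 0.323 in DMSO, a log2 difference of −0.017 with overlapping groups (exact two-sided permutation p = 0.90).

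Of the 5 subunits of eIF2B, the exchange factor of eIF2, 4 fell (80.0%, against 58.4% of all tested genes). These 4 fell under all 5 scalings. Eif2b2, the beta subunit, fell most, to 46.7, 49.0 and 48.8 FPKM in BMH-21, against 88.2, 83.6 and 88.4 FPKM in DMSO (log2 change −0.83 ± 0.040, limma adjusted p = 4.69e-08; −0.60 relative to all genes). Eif2b4, the delta subunit, averaged 6.07 ± 0.36 FPKM in BMH-21 and 10.5 ± 0.35 FPKM in DMSO (SD, n = 3 each), and Eif2b5, the catalytic epsilon subunit, 21.7 ± 1.5 and 34.9 ± 1.9 FPKM. Eif2b3, the gamma subunit that pairs with epsilon, was the lowest of the factors at 1.48 ± 0.10 FPKM in BMH-21 and 2.51 ± 0.051 FPKM in DMSO. The alpha subunit stood apart. Eif2b1, which holds the complex together as a dimer, had 37.0, 37.8 and 35.9 FPKM in BMH-21, against 34.8, 35.3 and 35.6 FPKM in DMSO. Its BMH-21 libraries were all above its DMSO libraries, but the change of 0.065 (95% interval −0.021 to 0.15) was not called (limma adjusted p = 0.145). It was called higher with median-ratio scaling (0.35), upper-quartile scaling (0.37) and quantile normalization (0.18), and had −0.054 with equal column totals, uncalled. The highest subunit exceeded the lowest by 29.3 to 35.2 times in BMH-21 libraries and by 32.9 to 36.0 times in DMSO libraries.

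In eIF3, the scaffold of the small subunit, 12 of 13 subunits fell (92.3%) and 1 rose (7.69%), against 58.4% and 19.9% of all tested genes. Changes were spread from −1.44 to 0.33, with a median of −0.62. With median-ratio or upper-quartile scaling 8 fell and 2 rose, with quantile normalization 11 and 1, and with equal column totals 12 and 1. Eif3c, a core subunit that binds eIF1 and eIF5, fell most of all 45 factors, to 16.2, 15.3 and 12.9 FPKM in BMH-21, against 41.4, 42.2 and 41.2 FPKM in DMSO. The DMSO libraries were thus above the highest BMH-21 library by a wide margin, and the log2 change was −1.44 ± 0.069 (SE, limma adjusted p = 4.59e-08), −1.20 relative to all genes. Eif3d, the subunit that can itself bind the mRNA cap, had 12.7, 11.7 and 12.1 FPKM in BMH-21, against 25.3, 26.5 and 26.4 FPKM in DMSO (log2 change −1.04 ± 0.045, limma adjusted p = 2.21e-08; −0.81 relative to all genes). Eif3l averaged 17.3 ± 1.2 FPKM in BMH-21 and 34.6 ± 0.19 FPKM in DMSO, and Eif3a, the largest subunit, 17.02 ± 0.33 and 33.8 ± 0.52 FPKM (SD, n = 3 each). These were 0.501 and 0.504 of their DMSO means.

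Further eIF3 subunits fell by less. Eif3m, of the core octamer, was at 0.561 of its DMSO mean, Eif3h at 0.628, Eif3e at 0.629 and Eif3g, which contacts mRNA and eIF4B, at 0.672. These 4 fell under all 5 scalings. Eif3j1, a loosely bound subunit, was at 0.759, Eif3b, a subunit with a propeller-shaped domain on the small subunit, at 0.808, and Eif3f, a subunit of the deubiquitinase-like fold, at 0.828. None of these 3 was called with median-ratio or upper-quartile scaling, where Eif3f had 0.022 and 0.045 and Eif3b −0.012 and 0.012. Eif3j1 has a close copy, Eif3j2, at 14.4 FPKM in BMH-21 and 18.9 FPKM in DMSO, and the way reads were split between them was not given. Eif3i had 69.6, 63.7 and 71.1 FPKM in BMH-21, against 70.9, 76.8 and 77.2 FPKM in DMSO, and its groups overlapped. Its call as lower (−0.14, limma adjusted p = 0.0346) was lost without BMH-21 replicate 2 (−0.089), DMSO replicate 2 (−0.12) or DMSO replicate 3 (−0.12), and it was called higher with median-ratio (0.16) and upper-quartile scaling (0.18).

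Eif3k, a small subunit at the edge of the octamer, was the exception within eIF3. It rose to 83.3, 83.9 and 82.7 FPKM in BMH-21, against 65.0, 66.1 and 66.5 FPKM in DMSO, with all BMH-21 libraries above all DMSO libraries (log2 change 0.33 ± 0.035, limma adjusted p = 1.03e-05; 0.57 relative to all genes). The make-up of the eIF3 mRNA pool moved with it. Eif3k made up 14.1% ± 0.30 of the 13 subunits' summed FPKM in BMH-21 and 8.02% ± 0.028 in DMSO, while Eif3c made up 2.51% ± 0.28 and 5.07% ± 0.078 (SD, n = 3 each). Eif3l, with which Eif3k pairs in the complex, made up 2.93% ± 0.15 in BMH-21 and 4.21% ± 0.061 in DMSO. The log2 ratio of Eif3e to Eif3d was 0.43 higher in BMH-21, at −0.36 ± 0.085 against −0.79 ± 0.056 in DMSO, with groups that did not overlap (exact two-sided permutation p = 0.10, adjusted p = 0.114 over 8 ratios).

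**Figure D3:**
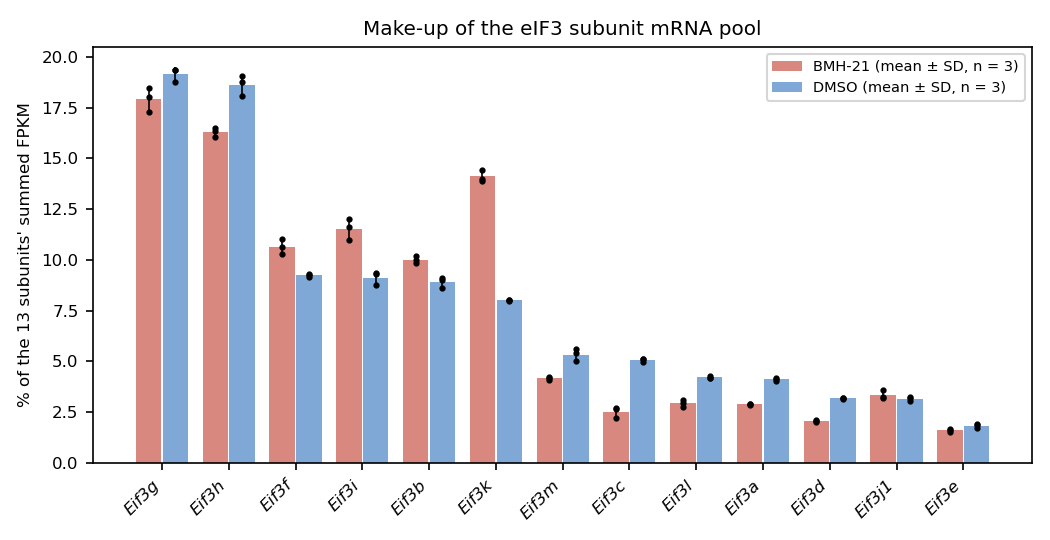
Share of each eIF3 subunit in the summed FPKM of the 13 subunits, as mean ± SD (bars and lines) and single libraries (points). The shares of Eif3k, Eif3i, Eif3f and Eif3b are larger in BMH-21, and those of the other subunits but Eif3j1, whose groups overlap, smaller.

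The cap-binding machinery moved unevenly: of 11 genes of eIF4F and its partners 7 fell (63.6%), 2 rose (18.2%) and 2 were not called. These shares were near the 58.4% and 19.9% of all tested genes. With equal column totals 9 fell and 0 rose, while median-ratio and upper-quartile scaling gave 3 falls and 4 rises and quantile normalization 5 and 3. The shares of all genes under these scalings are given above. The helicase arm fell. Eif4b, which stimulates the helicase and is a target of the mTORC1 and S6 kinase pathway, had 46.4, 46.2 and 47.4 FPKM in BMH-21, against 92.7, 94.8 and 94.1 FPKM in DMSO (log2 change −0.99 ± 0.035, limma adjusted p = 6.94e-09; −0.76 relative to all genes). Eif4a1, the main helicase that unwinds 5′ leaders, had 205, 197 and 200.2 FPKM in BMH-21, against 316, 331 and 334 FPKM in DMSO (−0.70 ± 0.039, limma adjusted p = 1.25e-07; −0.47 relative to all genes). Eif4h, a smaller relative of eIF4B in function, had 93.7, 95.7 and 94.0 FPKM in BMH-21, against 151, 143 and 138 FPKM in DMSO. All 3 had groups that did not overlap and were lower under all 5 scalings.

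The cap-binding protein itself went the other way. Eif4e had 57.2, 58.2 and 57.8 FPKM in BMH-21, against 47.2, 51.2 and 52.2 FPKM in DMSO (log2 change 0.20 ± 0.044, limma adjusted p = 0.00208; 0.43 relative to all genes). Eif4g2, a scaffold related to eIF4G that lacks the eIF4E-binding part and serves cap-independent initiation, had 147, 142 and 136 FPKM in BMH-21, against 125, 133 and 123 FPKM in DMSO (0.16 ± 0.045, limma adjusted p = 0.00804; 0.39 relative to all genes). Both rises were lost with equal column totals, at 0.079 and 0.038. With DMSO replicate 3 as lone control the change of Eif4e was 0.14. Eif4g1, the main scaffold of eIF4F, averaged 14.1 ± 0.84 FPKM in BMH-21 and 14.9 ± 0.75 FPKM in DMSO (SD, n = 3 each) and was not called (−0.074, 95% interval −0.20 to 0.047, limma adjusted p = 0.233). Its paralog Eif4g3 averaged 3.502 ± 0.22 FPKM in BMH-21 and 4.74 ± 0.23 FPKM in DMSO and was called lower at −0.35 (limma adjusted p = 0.000253), though not with median-ratio scaling (−0.11), upper-quartile scaling (−0.094) or quantile normalization (−0.028). Pabpc1, the poly(A)-binding protein that links the tail to eIF4G, fell to 74.7 ± 4.0 FPKM in BMH-21, against 92.9 ± 1.4 FPKM in DMSO, a change of −0.31 that was −0.020 with median-ratio scaling and 0.0030 with upper-quartile scaling, uncalled in both.

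The inhibitors of eIF4E bind it when mTORC1 is off. Eif4ebp1 had 137, 145 and 147 FPKM in BMH-21, against 154, 138 and 143 FPKM in DMSO, with overlapping groups (log2 change −0.016, 95% interval −0.13 to 0.096, limma adjusted p = 0.781). Eif4ebp2 had 24.2, 23.0 and 22.9 FPKM in BMH-21, against 28.5, 32.0 and 29.6 FPKM in DMSO (−0.35 ± 0.050, limma adjusted p = 0.000104). This call was lost with median-ratio scaling (−0.064) and upper-quartile scaling (−0.041). Within libraries the ratio of Eif4ebp2 to Eif4ebp1 was 0.163 in BMH-21 and 0.207 in DMSO, and that of Eif4e to Eif4ebp1 was 0.404 and 0.347. Between the helicases, Eif4a2 was a small part: its ratio to Eif4a1 was 0.0504 in BMH-21 and 0.0375 in DMSO, a log2 difference of 0.43. Eif4a2 was itself called lower (−0.25, limma adjusted p = 0.0108), at 10.8, 9.72 and 9.89 FPKM in BMH-21, against 10.9, 12.2 and 13.8 FPKM in DMSO, and was called with equal column totals but with none of the 3 other scalings. The ratios of Eif4g2 and Eif4g3 to Eif4g1 were 10.04 and 0.248 in BMH-21, against 8.502 and 0.318 in DMSO. In 7 of the 8 ratios tested the groups did not overlap, the exception being Eif2s1 to Eif2s2, but 3 libraries against 3 cannot give an exact p below 0.10, and the adjusted p of each of the 7 was 0.114.

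**Figure D4:**
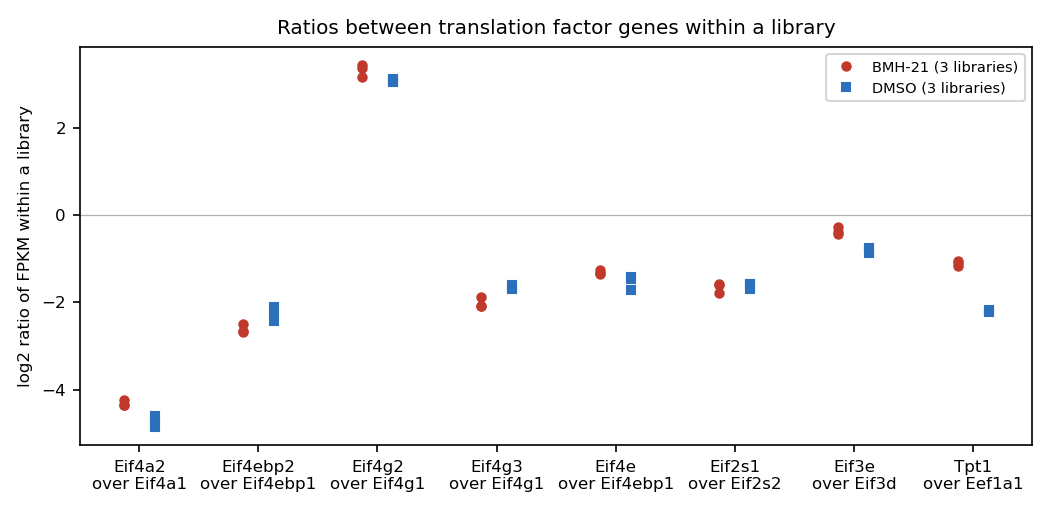
Log2 ratio of FPKM between pairs of factors within each library, with BMH-21 circles left of DMSO squares. The ratio of Tpt1 to Eef1a1 differs most, −1.11 in BMH-21 and −2.19 in DMSO on average, and that of Eif2s1 to Eif2s2 least.

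Elongation factors took the largest share of FPKM of the groups. Of 6 genes 4 fell (66.7%), 1 rose (16.7%) and 1 was not called, near the 58.4% and 19.9% of all tested genes. Median-ratio and upper-quartile scaling gave 1 fall and 2 rises, and quantile normalization and equal column totals 5 falls and 1 rise. Eef2, which moves the ribosome by 1 codon, fell to 431, 398 and 432 FPKM in BMH-21, against 724, 726 and 733 FPKM in DMSO, with a wide gap between the groups (log2 change −0.79 ± 0.044, limma adjusted p = 1.08e-07; −0.56 relative to all genes). Eef1a1, which carries aminoacyl-tRNA to the ribosome and had the highest mean of the 45 factors in both groups, had 1168, 1093 and 1098 FPKM in BMH-21, against 1276, 1330.3 and 1363 FPKM in DMSO. Its groups did not overlap, but its change of −0.24 was only −0.0083 relative to all genes, and with median-ratio and upper-quartile scaling it was 0.055 and 0.078, uncalled. Eif5a, the hypusine-bearing factor that helps the ribosome past difficult peptide bonds, had 1059.7, 1107 and 1138 FPKM in BMH-21, against 1191, 1103 and 1157 FPKM in DMSO (−0.062, 95% interval −0.17 to 0.044, limma adjusted p = 0.252). Its groups overlapped.

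The subunits of eEF1B, which recharges eEF1A with GTP, parted. Eef1b2, the catalytic alpha subunit, rose to 188, 180.1 and 179 FPKM in BMH-21, against 130.2, 137 and 134 FPKM in DMSO (log2 change 0.44 ± 0.039, limma adjusted p = 3.14e-06; 0.68 relative to all genes). Eef1d, the delta subunit, averaged 27.4 ± 1.2 FPKM in BMH-21 and 35.5 ± 1.9 FPKM in DMSO, and Eef1g, the structural gamma subunit, 160.5 ± 1.9 and 196 ± 10.2 FPKM (SD, n = 3 each). Both fell in the deposited values, at −0.36 and −0.29, and neither was called with median-ratio scaling (−0.072 and 0.0047) or upper-quartile scaling (−0.049 and 0.028). Eef1b2 overlaps Ndufs1 on the opposite strand, and the library kit is not stated to mark strand. In all, 8 factors overlap another protein-coding gene (Eif5b, Eif2s2, Eif2b4, Eif3j1, Eif3m, Eif4a2, Eef1b2 and Eef1d).

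Tpt1 and Eef1e1 had the largest rises. Tpt1 (chr14:75845093-75848525 in GENCODE M21 on GRCm38), the translationally controlled tumour protein and a classical TOP mRNA, had 518, 525 and 517 FPKM in BMH-21, against 284, 288 and 296 FPKM in DMSO. The libraries within each group lay close together and the groups far apart, with 1.80 times the DMSO mean (log2 change 0.84 ± 0.037, limma adjusted p = 2.53e-08; 1.08 relative to all genes). A row named as its pseudogene, Tpt1-ps3, reached at most 3.48 FPKM. Eef1e1 (chr13:38644207-38659058), which encodes a scaffold protein of the multi-tRNA-synthetase complex also known as AIMP3, had 40.8, 46.2 and 41.8 FPKM in BMH-21, against 27.8, 29.3 and 29.8 FPKM in DMSO (0.55 ± 0.053, limma adjusted p = 5.56e-06; 0.78 relative to all genes). Both were higher under all 5 scalings. Against Eef1a1, another TOP mRNA, the log2 ratio of Tpt1 was 1.09 higher in BMH-21 than in DMSO, the largest difference among the 8 ratios.

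Most factors that rose had short coding sequences, but so did many of those not called. The median coding length was 654 bases for those that rose (516 to 2718, n = 7) and 1266 bases for those that fell (360 to 4734, n = 32). For those not called it was 688.5 bases (339 to 4800, n = 6). Of the 19 factors with under 1000 coding bases, 5 rose and 10 fell, and of the 26 longer ones 2 rose (Eif5 and Eif4g2) and 22 fell. The same lean was seen over the whole table: of tested genes with under 1000 coding bases 33.5% were called higher and 42.5% lower, and of longer ones 11.8% and 68.8%. Across the 45 factors Spearman's rho between coding length and change was −0.44, and across 9207 tested genes it was −0.28. Genes share libraries and are not independent replicates, so these are descriptions. Among the factors, rho was 0.020 for whole mRNA length and −0.20 for GC content. The part of length in these changes was not tested.

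**Figure D5:**
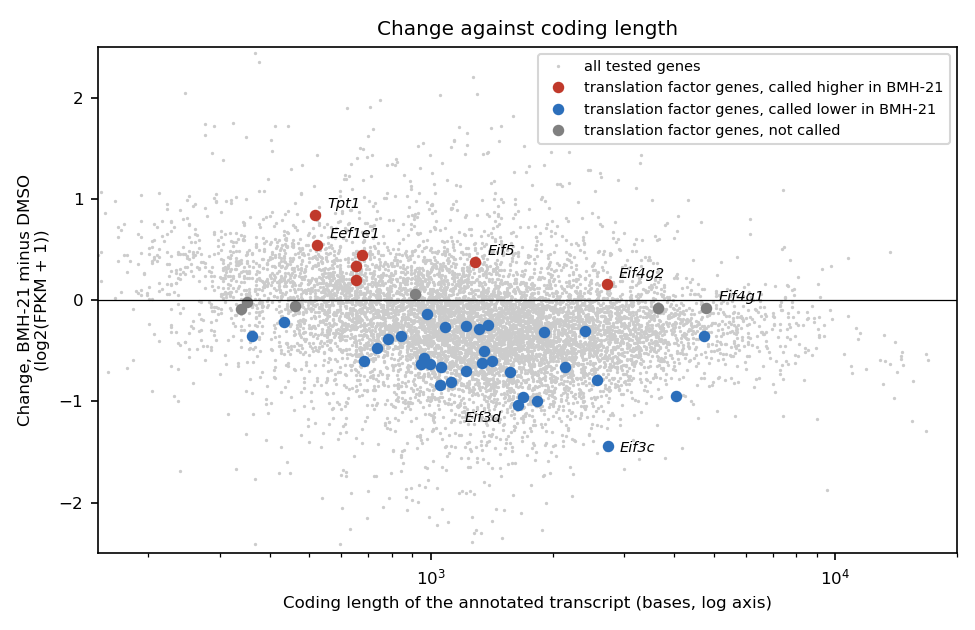
Change (BMH-21 minus DMSO, log2(FPKM + 1)) against coding length on a log axis for the 45 factors (large points) and all tested genes with an annotated coding transcript (grey, of which 13 lie outside the axes). Tpt1 and Eef1e1, both short, lie above 0, and most factors over 1000 bases lie below it.

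Other genes of translation were compared with the 58.4% called lower and 19.9% called higher among all tested genes. Of 16 tested further factors and paralogs 13 fell (81.2%), 1 rose and 2 were not called (median −0.30). Among them were Eif4a3, the helicase of the exon junction complex, at 33.0 ± 2.3 FPKM in BMH-21 and 78.1 ± 1.8 FPKM in DMSO, Abcf1, a ribosome-associated ATPase that binds eIF2, at 11.6 and 21.4 FPKM, Pabpc4 at 16.2 and 27.5 FPKM and Eif2a at 3.75 and 7.49 FPKM. The gene that rose was Denr, a factor of reinitiation, at 40.5 FPKM in BMH-21 and 36.4 FPKM in DMSO. Of 19 regulators 11 fell (57.9%), 2 rose and 6 were not called (median −0.29), a share of falls near that of the table. Mknk1, the kinase that phosphorylates eIF4E, fell to 14.7 ± 0.81 FPKM in BMH-21, against 33.3 ± 0.82 FPKM in DMSO (SD, n = 3 each), Eef2k, the inhibitory kinase of eEF2, to 1.59, against 3.19 FPKM, and Larp1, the TOP-binding repressor, to 12.6, against 18.9 FPKM. Ppp1r15b, which directs eIF2 dephosphorylation, fell to 27.3 FPKM in BMH-21, against 38.8 FPKM in DMSO, while its stress-induced paralog Ppp1r15a rose to 31.2, against 25.9 FPKM (log2 change 0.26, limma adjusted p = 0.000418). Dhps, the first enzyme of hypusine formation on eIF5A, rose to 20.3 FPKM in BMH-21, against 15.3 FPKM in DMSO.

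Of 8 tested termination, recycling and rescue genes 7 fell (87.5%) and 1 rose (median −0.39), the riser being Gspt1, which encodes the release factor eRF3, at 15.3 FPKM in BMH-21 and 12.97 FPKM in DMSO. Gtpbp2 and Gtpbp1, GTPases that act on stalled ribosomes, were at 13.6 and 5.80 FPKM in BMH-21, against 33.3 and 14.1 FPKM in DMSO. Hbs1l and Pelo, partners in ribosome rescue, were at 15.0 and 3.88 FPKM in BMH-21, against 21.6 and 5.74 FPKM in DMSO. Of 9 mitochondrial translation factors 6 fell (66.7%), 0 rose and 3 were not called (median −0.26), with 66.7% called in all against 78.3% of the table. The mitochondrial elongation factor gene Tufm was at 25.3 ± 0.77 FPKM in BMH-21 and 45.3 ± 1.7 FPKM in DMSO (limma adjusted p = 8.44e-08), and Tsfm at 20.7 and 28.2 FPKM. The initiation factor gene Mtif3 was at 2.15 FPKM in BMH-21 and 3.36 FPKM in DMSO, and Gfm1 at 1.81 and 2.92 FPKM. Relative to all genes these 4 medians ran from −0.16 to −0.024, and none of these lists was tested as a set. Denr, Ppp1r15a, Dhps and Gspt1 were chosen for naming after their values were seen.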

How the data were processed

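Polysome RNA of 6 libraries was sequenced. Trimmomatic 0.38, HISAT2, SAMtools and mm10 are named in the submitters' processing notes; how reads were counted is not given in the sources used here. The deposited values were read as FPKM from their range, since the header names no unit, and no value column lacked a sample. Low values implied whole reads (tolerance 0.01, up to 20 reads) for only 77.66% to 78.85% of genes, too few to recover counts, so no count model was fitted and no counting interval was computed. FPKM divide by each library's total, so RNA per cell is not measured. Reads of near-identical or overlapping genes may be split in an unknown way.

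Sample titles gave groups and replicate numbers. A gene was tested where 3 or more libraries reached 1 FPKM (9748 of 19233, 50.7%). log2(FPKM + 1), which understates changes of low genes, was tested in limma 3.58.1 (R 4.3.3, intensity trend), with Benjamini-Hochberg adjustment over all tested genes and a threshold of 0.05. The code was tested on simulated data. Shares and ratios of FPKM, with no pseudocount, had exact two-sided permutation tests (scipy 1.17.1), adjusted over the 8 ratios. Factors, lists and tests were chosen with earlier results of these data known. Any factor could be named; from each other translation list the 4 genes with the smallest p were. Positions and coding lengths came from GENCODE M21, which held 97.3% of symbols, using 1 transcript a gene; a rule against short principal transcripts was set after seeing that of Eif4g2. Alternatives were 4 other scalings, a pseudocount of 0.1, no filter, a replicate block and leaving out each library; DMSO replicate 3 as lone control was added after seeing the data.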

Additional observations from a re-analysis of the deposited data

How the results depend on the processing

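The count of called factors (39) stayed between 38 and 40 when each library was left out in turn, with 7 higher in each case and 31 to 33 lower. It was 37 with no filter (Eif3i and Eif4a2 lost) and 39 with a pseudocount of 0.1. With the replicate block it was 39 as well, 7 higher and 32 lower, and all tested genes gave 7502 calls against 7628. Deviations from the group means correlated at −0.11, −0.094 and −0.064 between same-numbered libraries, so no effect shared by a replicate number was seen. Such correlations cannot show whether the libraries were prepared in pairs. Median-ratio, upper-quartile and quantile scaling gave 3724, 3873 and 3491 higher and 3442, 3294 and 3544 lower among all genes, and the first 2 gave 14 and 14 higher and 20 and 19 lower factors. By construction these scalings move the bulk of genes toward 0.

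The median change of the factors was −0.072, −0.049, −0.28 and −0.47 with median-ratio, upper-quartile, quantile and equal-total scaling, and −0.38 to −0.32 with 1 library left out. Relative to all genes it was −0.081, −0.077 and −0.28 with the first 3, −0.091 with a pseudocount of 0.1, −0.31 with no filter, −0.14 with the lone control and −0.16 to −0.096 with 1 library left out. With no filter the all-gene median itself moved by 0.20, since unexpressed genes entered it. The relative medians of eIF2 were −0.35, −0.35 and −0.47 with median-ratio, upper-quartile and quantile scaling, −0.36 with a pseudocount of 0.1, −0.59 with no filter and −0.41 to −0.35 with 1 library left out. For eIF2B they were −0.63 with no filter and −0.48 to −0.40 with 1 library left out. For eIF3 they were −0.62 with quantile normalization, −0.58 with no filter, −0.47 with the lone control and −0.45 to −0.36 with 1 library left out. For eIF4F and partners they were −0.030, −0.025, −0.038, −0.28 and −0.13 with median-ratio scaling, upper-quartile scaling, the smaller pseudocount, no filter and the lone control, and −0.11 to −0.053 with 1 library left out. The start-site group, at 0.14, turned to −0.13 with quantile normalization and −0.055 with no filter and was 0.091 with the lone control. The elongation group, at −0.033, turned to 0.020, 0.025 and 0.012 with median-ratio scaling, upper-quartile scaling and the smaller pseudocount, and was −0.35 with quantile normalization, −0.23 with no filter, −0.11 with the lone control and −0.080 to −0.023 with 1 library left out. Tpt1 with Eef1e1, at 0.93, had 0.98, 0.71, 0.98, 0.73 and 0.86 with upper-quartile scaling, quantile normalization, the smaller pseudocount, no filter and the lone control. Where a scaling was not the change, the cause was not tested.

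Factors called lower that turned sign were, with median-ratio scaling, Eif1ax (0.073), Eif3f (0.022), Eif3i (0.16), Eif4a2 (0.021), Eef1a1 (0.055) and Eef1g (0.0047), and with upper-quartile scaling the same 6 (0.095, 0.045, 0.18, 0.042, 0.078 and 0.028), Eif3b (0.012) and Pabpc1 (0.0030). The ratio of Eif2s1 to Eif2s2 had no clear sign, at 0.0047 with 1 added to each FPKM and −0.058 to 0.053 with 1 library left out (0.053 without BMH-21 replicate 3 and 0.0078 without DMSO replicate 3), and the other 7 ratios kept theirs in these settings. The share of summed FPKM taken by the factors was 0.38 to 0.41 percentage points lower in BMH-21 with 1 library left out. Depth limits low genes such as Eif2b3 most.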
